A study of Homo sapiens with 9 samples.

Results

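Members of the SLC25 family are the carrier proteins of the mitochondrial inner membrane, together with a few relatives in other membranes. Each carries a small solute, such as ADP and ATP, phosphate, citrate, an amino acid, a nucleotide or iron, between the cytosol and the matrix. The uncoupling proteins are a branch of the same family. Carriers are made in the cytosol from nuclear genes and are brought into the inner membrane by the TIM22 import pathway. The genes described here are the protein-coding genes whose symbol is SLC25A followed by a number, plus UCP2 and UCP3, and they are 50 of the 58735 genes in the deposited table, of which 19951 are protein-coding. Below, the family means these 50 genes only. MTCH1 and MTCH2 have other symbols and are listed with the other membrane transporters. The family was chosen because SLC25A27 was among the 3 largest falls at 1 μM within a filtered set of genes, given below with its rank. The values of SLC25A27 at that dose are therefore given as a description with no test, and the other members entered by name.

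The data are RNA-seq read counts from KHM-5M, a thyroid cancer cell line. For 24 h cells received DMSO, the vehicle, or YK-4-279, a small molecule inhibitor of ETS transcription factors, at 0.3 μM or 1 μM, and each of the 3 groups had 3 samples. The labels do not say whether the samples of a group were separate cultures, so p-values measure the spread between these samples, which may be technical. KHM-5M is a single line, and all 3 groups come from it.

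The 9 libraries held 16903251 to 18238884 counts, and a gene with 0 counts could still have had up to 3, which is 0.164 to 0.177 CPM (counts scaled to a common library size) and allows for counting error only. The carriers took 0.334% to 0.353% of all counts and the 13 mitochondrially encoded mRNAs 2.36% to 2.92%. Of the thyroid markers, PAX8 had 2742 to 3660 counts in every sample, whereas TG, TSHR and SLC5A5 had at most 4 counts. The epithelial keratins KRT8 and KRT18 were abundant, and CDH1 had at most 5 counts.

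ETS factors bind DNA words with the core GGAA, and the promoters of the members were therefore read for the words CCGGAA and CCGGAAGT on both strands; a window that holds the longer word also holds the shorter one. RefSeq windows of GRCh38.p14, from 250 bases before the start to 50 after, matched 42 of the 50 members in 54 windows. CCGGAA was present in 17 of these 54 windows (31.5%), against 17.2% of the 35116 windows of all genes, and CCGGAAGT in 4 (7.41%), against 4.14%. Some genes have several windows, which can overlap, so windows are not independent, and SLC25A6 has the same window on X and on Y. The windows of all genes were not matched to those of the members for expression or base content. Nothing is therefore read from the difference in shares. By gene, 15 of the 42 members held CCGGAA and 4 held CCGGAAGT. No share per gene was computed for all genes. Of the 10 genes with a window among SLC25A27 and the members called in at least 1 comparison below, 3 held CCGGAA (SLC25A14, SLC25A22 and SLC25A24) and 1 of them held CCGGAAGT (SLC25A24). The windows of SLC25A27, SLC25A29 and SLC25A33 held neither word. The core GGAA with other flanking letters was not counted, so a window without these words can still hold it. These 3 are shown because they had the largest fall in the family, the fall with the smallest adjusted p and the largest called rise at 1 μM. Only the longest stretch before the start that no annotated exon covers is printed, 5′ to 3′ on the strand of the gene, and it has no capitals because the word was not found. The positions are chr6:46652831-46652914 (plus strand) for SLC25A27, chr14:100306548-100306694 (minus strand) for SLC25A29 and chr1:9539215-9539464 (plus strand) for SLC25A33. A match is a description of the letters and not a bound site.
SLC25A27: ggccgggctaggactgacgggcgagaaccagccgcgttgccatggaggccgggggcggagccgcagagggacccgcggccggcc
SLC25A29: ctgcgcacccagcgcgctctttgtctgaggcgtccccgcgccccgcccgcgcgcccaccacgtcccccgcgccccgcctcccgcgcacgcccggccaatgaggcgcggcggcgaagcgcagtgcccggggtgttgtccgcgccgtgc
SLC25A33: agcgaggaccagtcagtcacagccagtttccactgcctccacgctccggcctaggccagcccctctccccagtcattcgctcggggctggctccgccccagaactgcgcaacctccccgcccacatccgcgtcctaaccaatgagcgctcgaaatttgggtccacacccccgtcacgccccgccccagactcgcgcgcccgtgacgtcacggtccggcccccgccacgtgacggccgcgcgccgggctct

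Levels were compared between genes by the authors' FPKM, which divides by gene length. In DMSO the family spanned several orders of magnitude. SLC25A5, the main ADP/ATP carrier of dividing cells, was highest with 479 to 520 FPKM (median 519). SLC25A6, another ADP/ATP carrier, followed with a median of 155 FPKM (151 to 165). SLC25A3, the phosphate carrier, had a median of 103 FPKM (97.3 to 103). These are the carriers that exchange ADP for ATP and bring phosphate to the ATP synthase. The 3 genes together held 67.2% to 68.4% of the summed FPKM of the 50 genes over the 9 samples. MTCH1, which is outside the 50, had 148 to 161 FPKM in DMSO. SLC25A1, the citrate carrier, had a median of 87.3 FPKM, and SLC25A39, which carries glutathione, had 50.1. SLC25A23, a calcium-regulated ATP-Mg/phosphate carrier, had 19.8, SLC25A11, the oxoglutarate carrier, had 16.2, and SLC25A28, the iron carrier mitoferrin-2, had 16.0. From SLC25A5 down to SLC25A23 no neighbours overlapped in their 3 DMSO values, whereas SLC25A23, SLC25A11 and SLC25A28 each overlapped the next in the order. SLC25A27 ranked 37 of 50, with a median of 0.773 FPKM (0.637 to 0.891), and overlapped SLC25A53 just under it.

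**Figure D1:**
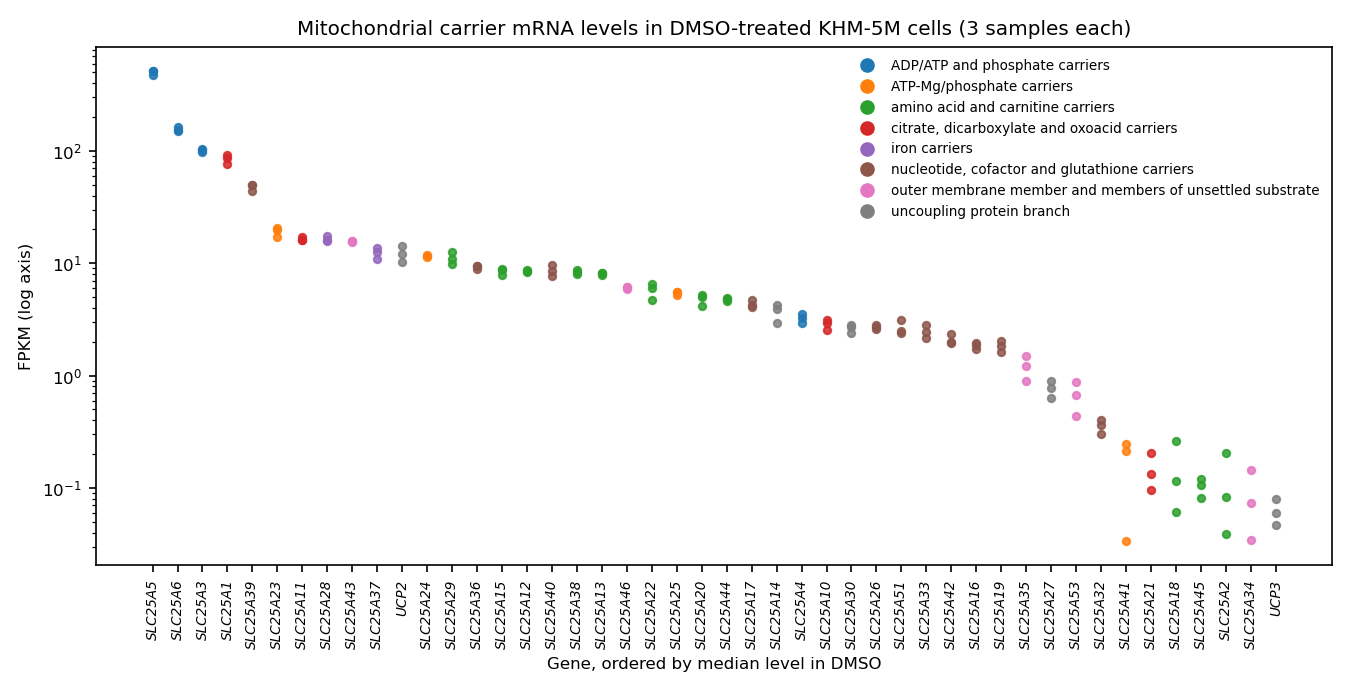
FPKM (log axis) of each carrier gene in the 3 DMSO samples, ordered by the median and coloured by role; each point is 1 sample, and genes at 0 in any DMSO sample are not drawn. SLC25A5, SLC25A6 and SLC25A3 lead, and SLC25A27 lies at 0.637 to 0.891 FPKM.

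At the other end, 10 members had too few counts to be tested at 1 μM against DMSO. SLC25A18 had 4 to 21 counts per sample, SLC25A21 had 3 to 15, SLC25A41 had 0 to 10, SLC25A34 and UCP3 had 2 to 9 each and SLC25A2 had 0 to 5. SLC25A31, the ADP/ATP carrier best known from testis, had counts in 2 of 9 samples (at most 3), and SLC25A47, SLC25A48 and SLC25A52 had a single count in 1 sample each. UCP3, the uncoupling protein best known from skeletal muscle, was therefore near the counting floor in every group, and no difference could be detected at this depth. The filter left 40 members for testing at 1 μM against DMSO and 41, with SLC25A18, in the comparisons with or between the 0.3 μM samples.

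SLC25A27 (UCP4; ENSG00000153291, chr6:46652915-46678193), an uncoupling protein relative best known from brain, was lower at 1 μM than in either other group. Its counts were 44, 38 and 50 in the DMSO samples, 40, 37 and 46 at 0.3 μM and 13, 12 and 13 at 1 μM. All 3 samples at 1 μM lay under all of the others, and the DMSO and 0.3 μM samples overlapped. Scaled to depth, the means were 2.54 ± 0.42 CPM in DMSO, 2.32 ± 0.30 at 0.3 μM and 0.724 ± 0.040 at 1 μM (SD, n = 3). The log2 fold change at 1 μM was -1.81 (SE 0.30) against DMSO and -1.67 (SE 0.31) against 0.3 μM, and that of 0.3 μM against DMSO was -0.13 (SE 0.24). In bulk RNA, fewer cells that express a gene and less of its RNA per cell cannot be told apart. Among the called protein-coding genes with groups that do not overlap and a mean CPM of 1 or more, its fall ranked 2, between SCT (-2.14) and AC013394.1 (-1.77, the last one inside the choice of 3), and ZNF439 (-1.60) was just outside. Over all genes tested, without these limits, the largest fall was -5.06. The other 39 tested members lay between -0.62 and 0.61 in the same comparison.

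The effect of 1 μM was assessed by edgeR's quasi-likelihood test on all 15617 genes that passed the filter, with Benjamini-Hochberg adjustment over all of them; a gene is called at an adjusted p under 0.05. Besides SLC25A27, 9 of 39 tested members were called (23.1%), 4 lower and 5 higher. Over all genes the called share was 17.6%, with 9.95% lower and 7.67% higher, and since the family was picked from this comparison nothing is read from the difference. SLC25A29, SLC25A28, SLC25A14 and UCP2 fell, and SLC25A24, SLC25A16, SLC25A13, SLC25A22 and SLC25A33 rose. The median log2 fold change of the 39 members was 0.03 and that of all genes -0.01, and the median of the absolute value was 0.18 against 0.17. The values of all 3 samples of a group lay apart from those of DMSO for 15 of the 39, 4 lower and 11 higher, against 36.6% of all genes (17.7% lower and 18.9% higher). Under the study's fold cutoff of 1.5 and an adjusted p under 0.05, SLC25A29 and SLC25A33 passed, against 3.92% of the tested protein-coding genes. This count of 2 was 4 without DMSO replicate 2 and 1 without any of the 5 other samples. SLC25A35, a member without a settled substrate, fell by 0.62 on the log2 scale (SE 0.21), with groups that did not overlap. It was not called (adjusted p = 0.057 by edgeR).

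**Figure D2:**
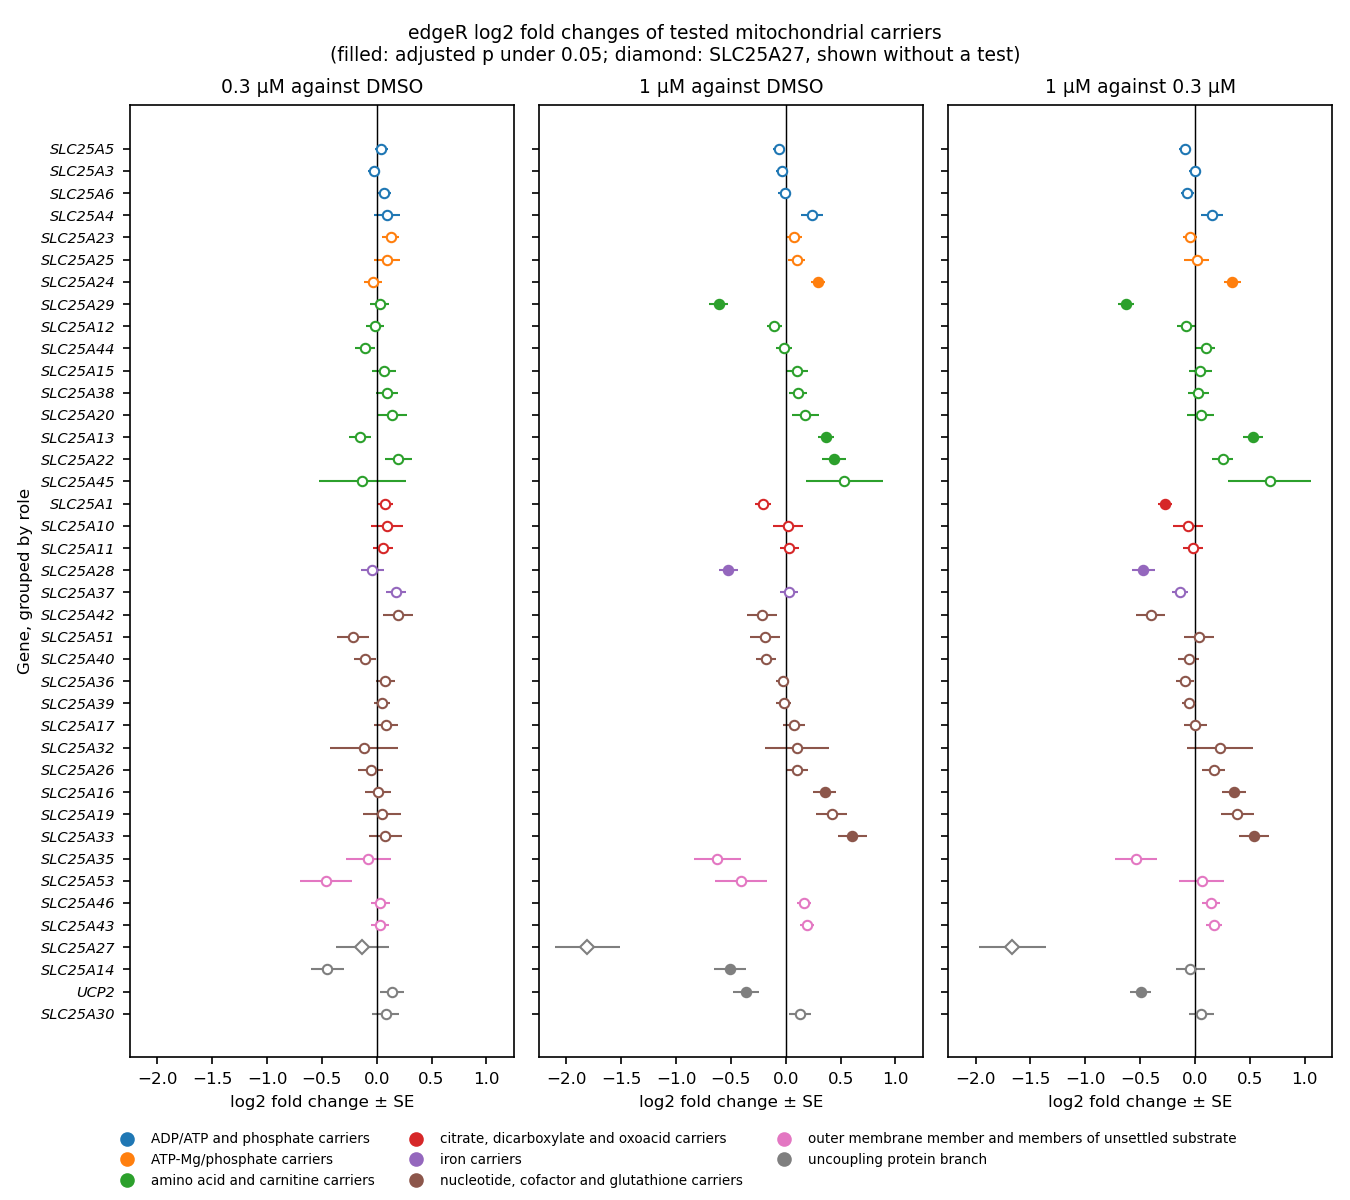
edgeR log2 fold change ± SE (x axis) of the 40 members tested at 1 μM against DMSO, grouped and coloured by role, in the 3 comparisons; filled points have an adjusted p under 0.05 and diamonds mark SLC25A27, shown without a test. At 0.3 μM against DMSO no point is filled, and at 1 μM against DMSO the filled points lie on both sides of 0, from -0.61 to 0.61.

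In the uncoupling protein branch, edgeR called 2 of the 3 other tested members lower, against 9.95% of all genes, and DESeq2 called 1. Nothing is read from a count over 3 genes. SLC25A14 (UCP5, best known from brain; chrX:130339888-130373361) had 12.9, 8.86 and 11.8 CPM in DMSO, 7.73, 8.05 and 8.77 at 0.3 μM and 7.64, 8.32 and 7.75 at 1 μM. The samples of both doses lay under all 3 DMSO samples, and those of 1 μM overlapped those of 0.3 μM. The log2 fold change at 1 μM was -0.51 (SE 0.15, adjusted p = 0.028 by edgeR), and it was no longer called without any 1 sample other than DMSO replicate 2 (adjusted p 0.060 to 0.109) or in DESeq2 (0.054). UCP2, which exports four-carbon metabolites from the matrix and is widely expressed, had 47.0, 33.5 and 39.1 CPM in DMSO, 41.6, 43.2 and 47.1 at 0.3 μM and 30.3, 35.2 and 27.6 at 1 μM. Replicate 2 of 1 μM overlapped the DMSO range, and all 1 μM samples lay under all 0.3 μM samples. UCP2 (chr11:73974667-73983307) fell by 0.37 on the log2 scale against DMSO (SE 0.12, adjusted p = 0.047 by edgeR), a call lost without DMSO replicate 1 or 3 or 1 μM replicate 1 or 3 (adjusted p 0.102 to 0.182). SLC25A30, the member first described in kidney, had 284, 351 and 312 counts in DMSO and 326, 369 and 352 at 1 μM, with groups that overlapped and a log2 fold change of 0.13 (SE 0.10, adjusted p = 0.42 by edgeR).

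Of the ADP/ATP and phosphate carriers, SLC25A5, SLC25A6 and SLC25A3 hold most of the family's summed FPKM. Their log2 fold changes at 1 μM against DMSO lay between -0.06 and -0.01. SLC25A5 had 766 ± 34 CPM in DMSO and 738 ± 25 at 1 μM (log2 fold change -0.06, SE 0.06). SLC25A6 had 342 ± 16 and 341 ± 22 CPM (-0.01, SE 0.06), and SLC25A3 had 908 ± 30 and 888 ± 32 CPM (-0.04, SE 0.05; SD, n = 3 for each). SLC25A4, the ADP/ATP carrier of heart and muscle, had 15.9, 17.4 and 14.5 CPM in DMSO and 18.9, 18.1 and 19.5 at 1 μM, with groups that did not overlap. Its log2 fold change was 0.24 (SE 0.10) and did not pass the adjustment (adjusted p = 0.12 by edgeR). None of the 4 tested members of this group was called at 1 μM by edgeR, 1 had an unadjusted p under 0.05 and DESeq2 called 0.

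Among the 9 tested carriers of amino acids and carnitine, 1 fell and 2 rose, against 9.95% and 7.67% of all genes called. SLC25A29 (chr14:100291111-100306547, with its promoter printed above), which carries arginine and lysine, had 94.3, 73.8 and 81.2 CPM in DMSO, 87.2, 80.7 and 86.3 at 0.3 μM and 56.8, 50.1 and 56.8 at 1 μM. Every 1 μM sample lay under every other sample. Its log2 fold change against DMSO was -0.61 (SE 0.09, adjusted p = 0.00040 by edgeR), and the mean CPM fell by 34.3%. SLC25A13 (citrin; chr7:96120220-96322147), the aspartate/glutamate carrier of the malate-aspartate shuttle, had 30.9, 29.2 and 30.9 CPM in DMSO, 29.5, 28.7 and 23.6 at 0.3 μM and 40.9, 39.3 and 37.5 at 1 μM. It rose by 0.36 on the log2 scale (SE 0.07, adjusted p = 0.0045 by edgeR). SLC25A12, the other aspartate/glutamate carrier, had a log2 fold change of -0.10 (SE 0.07, adjusted p = 0.34 by edgeR). SLC25A22 (chr11:790475-798333), a glutamate carrier, had 30.3, 22.3 and 28.1 CPM in DMSO, 31.9, 26.8 and 34.0 at 0.3 μM and 38.0, 39.3 and 32.6 at 1 μM. The 1 μM samples lay above all DMSO samples, and 1 of them lay within the range at 0.3 μM. SLC25A22 rose by 0.44 on the log2 scale (SE 0.11, adjusted p = 0.014 by edgeR), and was not called without 1 μM replicate 2 (adjusted p = 0.065).

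Of the 2 iron carriers, which bring iron into the matrix for haem and iron-sulphur cluster synthesis, SLC25A28 (mitoferrin-2; chr10:99610522-99620609) fell. The share of all genes called lower was 9.95%. SLC25A28 had 30.7, 27.8 and 28.3 CPM in DMSO, 32.3, 27.0 and 25.1 at 0.3 μM and 21.0, 18.7 and 20.8 at 1 μM, so that the 1 μM samples lay under all others. The log2 fold change was -0.53 (SE 0.09, adjusted p = 0.0011 by edgeR), and the mean CPM fell by 30.2%. SLC25A37, mitoferrin-1, which is best known from red blood cell precursors, had a log2 fold change of 0.03 (SE 0.08, adjusted p = 0.85 by edgeR).

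Among the 11 tested carriers of nucleotides, cofactors and glutathione, 2 rose and none fell, against 7.67% and 9.95% of all genes called. SLC25A33 (chr1:9539482-9585179), a pyrimidine nucleotide carrier, had 11.1, 9.47 and 8.33 CPM in DMSO, 8.41, 10.9 and 11.2 at 0.3 μM and 16.0, 12.5 and 15.6 at 1 μM. Every 1 μM sample lay above every other sample. SLC25A33 rose by 0.61 on the log2 scale (SE 0.13, adjusted p = 0.0069 by edgeR), a mean ratio of 1.53. SLC25A36, the other pyrimidine nucleotide carrier, had a log2 fold change of -0.03 (SE 0.06, adjusted p = 0.79 by edgeR). SLC25A16 (chr10:68477999-68527474), first found as an antigen in Graves disease and linked to coenzyme A transport, had 262, 263 and 228 counts in DMSO, 250, 288 and 237 at 0.3 μM and 308, 327 and 338 at 1 μM, with the 1 μM samples above all others. It rose by 0.35 on the log2 scale (SE 0.10, adjusted p = 0.031 by edgeR), and was not called without DMSO replicate 3 or without 1 μM replicate 2 or 3 (adjusted p 0.089 to 0.128). SLC25A39 had a log2 fold change of -0.02 (SE 0.07, adjusted p = 0.87 by edgeR).

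SLC25A24 (chr1:108134036-108200849) was the 1 called member of the 3 tested ATP-Mg/phosphate carriers, against 17.6% of all genes called. These carriers adjust the adenine nucleotide content of the matrix in response to calcium. SLC25A24 had 77.6, 80.5 and 78.2 CPM in DMSO, 74.5, 86.0 and 70.7 at 0.3 μM and 104, 90.6 and 97.3 at 1 μM, with the 1 μM samples above all others. The log2 fold change was 0.30 (SE 0.06, adjusted p = 0.0056 by edgeR). SLC25A23, the member of this group with the highest FPKM, had 0.07 (SE 0.08, adjusted p = 0.54 by edgeR).

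Of the 3 tested carriers of citrate, dicarboxylates and oxoacids, none was called at 1 μM against DMSO by edgeR, 1 had an unadjusted p under 0.05 and DESeq2 called 0. SLC25A1 (chr22:19175575-19178830), the citrate carrier that supplies acetyl units for lipid synthesis, had 196, 162 and 184 CPM in DMSO, 195, 191 and 186 at 0.3 μM and 148, 168 and 156 at 1 μM. The 1 μM samples overlapped those of DMSO and lay under all those of 0.3 μM. The log2 fold change was -0.21 (SE 0.07, adjusted p = 0.066 by edgeR) against DMSO. SLC25A11 had 0.03 (SE 0.09, adjusted p = 0.85 by edgeR). Of the 4 tested members in the outer membrane or without a settled substrate, none was called by edgeR, 3 had an unadjusted p under 0.05 and DESeq2 called 0; their log2 fold changes ran from -0.62 to 0.19.

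**Figure D3:**
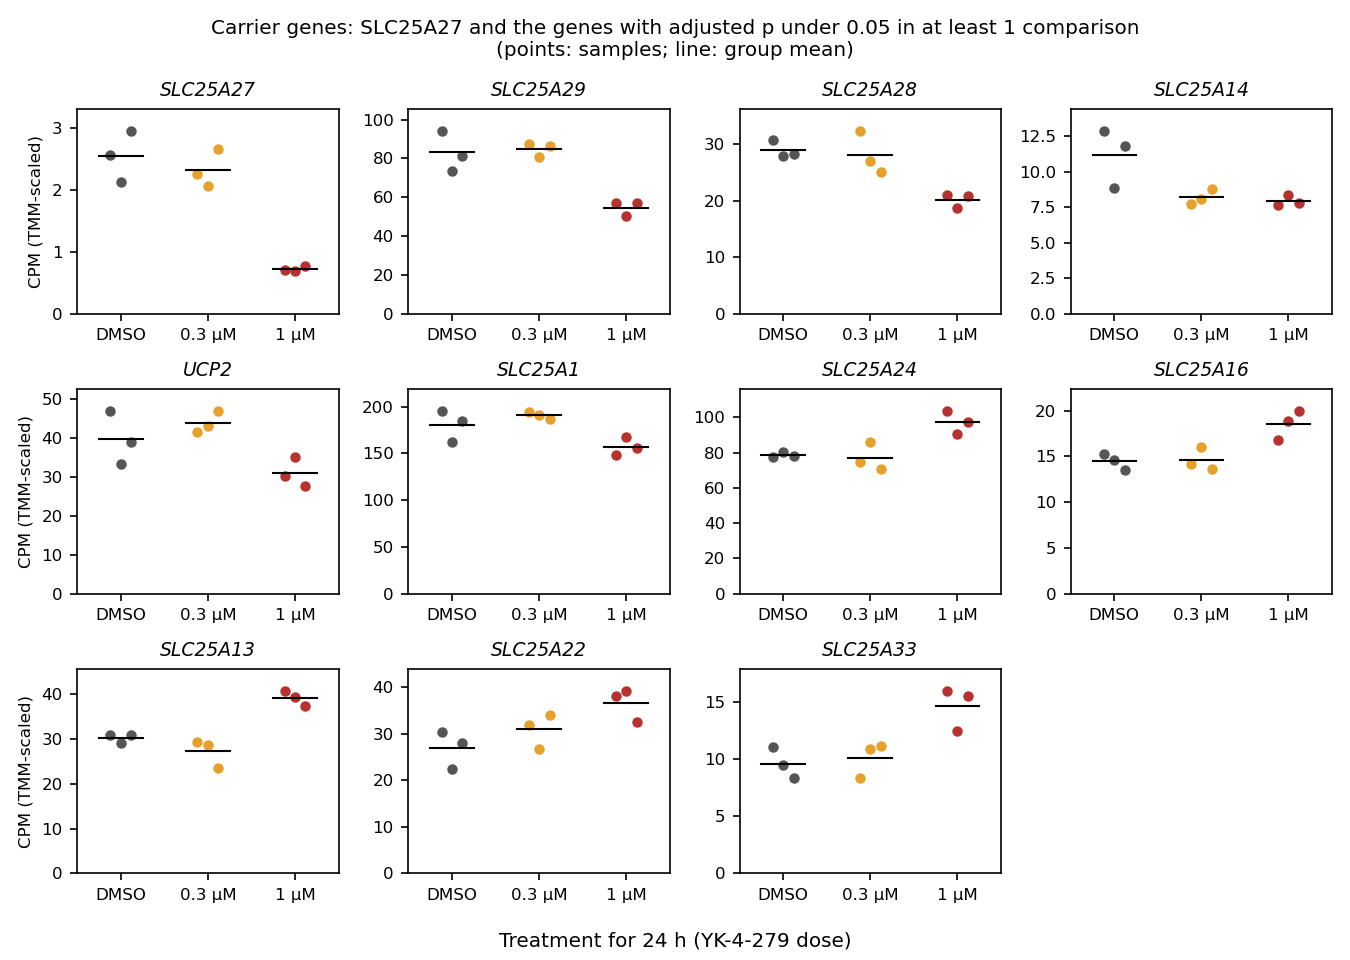
CPM (y axis, from 0) of SLC25A27 and the 10 other members with an adjusted p under 0.05 in at least 1 comparison, by treatment (x axis); points are samples and lines are group means (n = 3). SLC25A29 and SLC25A28 at 1 μM lie under all other samples, SLC25A33, SLC25A13 and SLC25A24 lie above them, and SLC25A14 is lower than DMSO at both doses.

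At 0.3 μM against DMSO, edgeR called none of the 41 tested members and 0 of all 15762 genes (0.0%). The study itself reported differentially expressed genes at this dose. Its rule was a P under 0.05 by DESeq2 and a change over 1.5-fold, which is not the rule used here. SLC25A14 was the 1 member with an unadjusted p under 0.05 (3.77% of all genes), DESeq2 called 0 members, and log2 fold changes ran from -0.46 to 0.20. Of the 40 other than SLC25A27, the groups did not overlap for 2, SLC25A14 and SLC25A23, against 8.37% of all genes. The largest fall was that of SLC25A53, a member without a settled substrate, with 105, 84 and 51 counts in DMSO and 64, 62 and 52 at 0.3 μM, groups that overlapped (log2 fold change -0.46, SE 0.24). The largest rise was that of SLC25A22 (0.20, SE 0.12). SLC25A14 had a log2 fold change of -0.45 (SE 0.15, unadjusted p = 0.0087 and adjusted p = 0.995 by edgeR), and the difference of 1 μM from 0.3 μM was -0.04 (SE 0.13).

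The doses were also compared directly, with no DMSO sample in the fit. Of 40 tested members other than SLC25A27, 8 were called, 4 lower and 4 higher, against 12.6% of 15583 genes (6.75% lower and 5.85% higher). The 8 became 5 without 1 μM replicate 1 or without 1 μM replicate 3. SLC25A29 (-0.63, SE 0.07, adjusted p = 5.93e-05 by edgeR), UCP2, SLC25A28 and SLC25A1 were lower at 1 μM than at 0.3 μM. UCP2 had -0.50 (SE 0.09, adjusted p = 0.0025 by edgeR), and kept its call without any 1 sample. SLC25A28 had -0.47 (SE 0.10, adjusted p = 0.0076 by edgeR). SLC25A1 had -0.27 (SE 0.06, adjusted p = 0.0090 by edgeR), which was not called without 1 μM replicate 1 or 3 (adjusted p 0.051 to 0.056). SLC25A13 was higher by 0.53 (SE 0.09, adjusted p = 0.0014 by edgeR) and SLC25A24 by 0.34 (SE 0.08, adjusted p = 0.0097 by edgeR; 0.058 without 1 μM replicate 1). SLC25A33 was higher by 0.54 (SE 0.14, adjusted p = 0.015 by edgeR), not called without 1 μM replicate 1 or 3 or 0.3 μM replicate 1 (0.061 to 0.071). SLC25A16 was higher by 0.35 (SE 0.11, adjusted p = 0.043 by edgeR), not called without 1 μM replicate 2 or 3 or 0.3 μM replicate 1 or 3 (0.094 to 0.180), nor in DESeq2 (0.066). The groups did not overlap for 13 of the 40 members, against 31.5% of all genes. Since the 1 μM samples enter both this comparison and that with DMSO, the values are given side by side and are not independent.

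Genes that work beside the carriers were described from lists of the import machinery, other membrane transporters, enzymes, biogenesis regulators and mitochondrially encoded mRNAs. For comparison, edgeR called 17.6% of all genes at 1 μM against DMSO, and 31.9% had an unadjusted p under 0.05. Of 13 tested genes of the TIM22 import pathway, edgeR called 0 at 1 μM against DMSO (1 at an unadjusted p under 0.05, 0 by DESeq2), with a median log2 fold change of 0.02. Of 22 other mitochondrial membrane transporters, 1 was called, SFXN2, a sideroflexin, with 164, 171 and 156 counts in DMSO and 119, 140 and 99 at 1 μM (log2 fold change -0.47, SE 0.14, adjusted p = 0.034 by edgeR; 0 genes by DESeq2), and the median was -0.01. Of 19 enzymes that use or supply carried solutes, 1 fell and 2 rose (6 at an unadjusted p under 0.05, 3 by DESeq2), with a median of 0.03. MTHFD2, of the mitochondrial folate pathway, fell by 0.25 on the log2 scale (SE 0.07, adjusted p = 0.025 by edgeR). ALAS1, the first enzyme of haem synthesis, rose by 0.27 (SE 0.06, adjusted p = 0.0082 by edgeR). CPT2, which forms acyl-CoA from the acylcarnitine that SLC25A20 brings in, had 132, 165 and 163 counts in DMSO and 212, 234 and 248 at 1 μM and rose by 0.58 (SE 0.13, adjusted p = 0.0080 by edgeR). SLC25A20 itself had a log2 fold change of 0.18 (SE 0.13, adjusted p = 0.36 by edgeR). These values differ in direction within the list.

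Of 12 regulators of mitochondrial biogenesis, 2 rose and none fell at 1 μM, with a median of 0.11, against 17.6% of all genes called. An unadjusted p under 0.05 was found for 5, against 31.9% of all genes, and DESeq2 called 3. PPRC1 (0.34, SE 0.08, adjusted p = 0.012 by edgeR) and PPARGC1B (0.33, SE 0.10, adjusted p = 0.029 by edgeR) are both coactivators of the PGC-1 family. Of the 13 mitochondrially encoded mRNAs, which code for subunits of the respiratory chain and ATP synthase, edgeR called 0 at 1 μM against DMSO (3 at an unadjusted p under 0.05, 0 by DESeq2), with a median of 0.03. Between 1 and 0.3 μM, edgeR called 2 of them lower, against 6.75% of all genes, and DESeq2 also called 2. At 0.3 μM against DMSO edgeR called 0 genes in each of the 5 lists; at an unadjusted p under 0.05 there was 1, among the biogenesis regulators, and DESeq2 called 0.

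**Figure D4:**
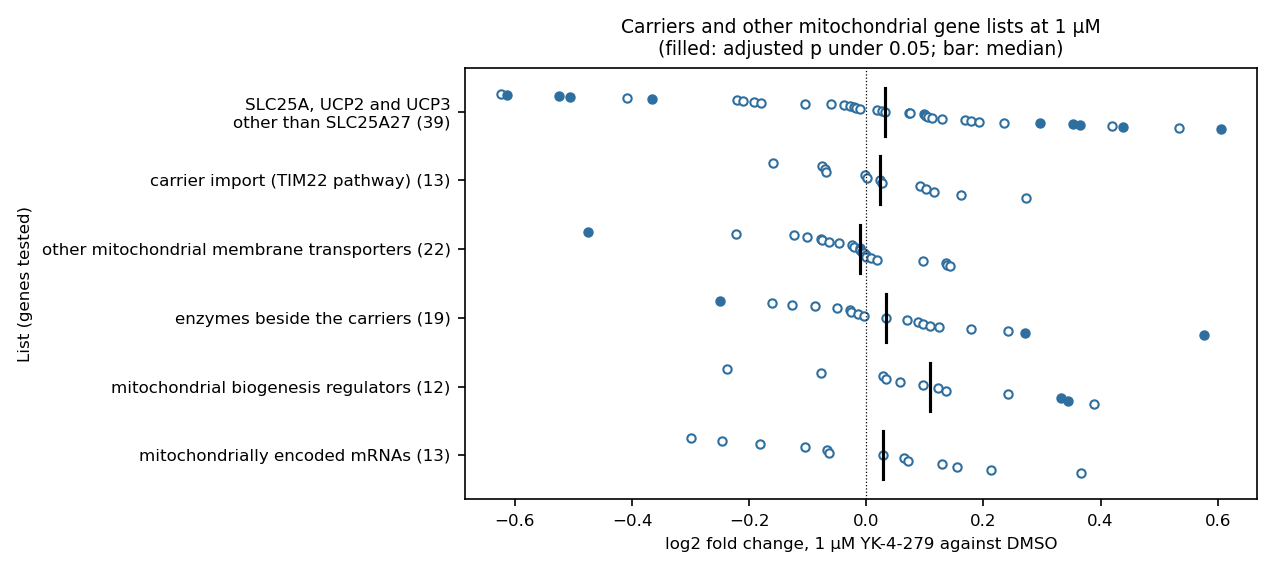
edgeR log2 fold change at 1 μM against DMSO (x axis) of each tested gene of the family other than SLC25A27 and of 5 mitochondrial lists (number tested in brackets); filled points have an adjusted p under 0.05 and bars mark medians, which lie between -0.01 and 0.11.

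Markers of other cell types were also read. The summed CPM of the 5 leukocyte markers was 0.501 to 1.28 in DMSO, 0.461 to 1.22 at 0.3 μM and 1.79 to 2.13 at 1 μM, carried by CD14, whose counts were 8 to 21 in DMSO, 8 to 21 at 0.3 μM and 30 to 37 at 1 μM (log2 fold change 1.07, SE 0.35, adjusted p = 0.048 by edgeR; not called by DESeq2). The defining markers PTPRC and CD3E had at most 1 count in any sample. The summed CPM of the 5 fibroblast markers was 401 to 567 in DMSO, 332 to 515 at 0.3 μM and 348 to 403 at 1 μM. Of these, COL1A1 had a log2 fold change of -0.41 (SE 0.10, adjusted p = 0.013 by edgeR; not called by DESeq2), and COL1A2, COL3A1 and DCN had at most 10 counts. LUM had 142, 183 and 168 counts in DMSO and 211, 180 and 238 at 1 μM, with a log2 fold change of 0.33 (SE 0.14, adjusted p = 0.11 by edgeR). The summed CPM of the 5 epithelial markers was 1759 to 1768 in DMSO, 1686 to 1821 at 0.3 μM and 1723 to 1847 at 1 μM. The part of these markers in the carrier values was not tested.

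Shared sequence could limit the counts of some members. Exons of 12 members overlap exons of another gene whose mean count was 10 or more, and none of these 12 is SLC25A27 or 1 of the 10 other members called in a comparison. SLC25A5, SLC25A30, SLC25A11 and SLC25A35 are among them. Whether counting used strand is not settled in the sources used here, so reads of a member and of an overlapping gene on the opposite strand may not be told apart. The table also holds 40 named processed or unprocessed pseudogenes of the family, 17 of them with counts, and the highest mean was 9.78 counts (SLC25A15P4).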

How the data were processed

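RNA-seq was analysed for 9 samples, 3 in each group. The authors selected poly(A) RNA and aligned reads to GRCh38. The submitters' processing notes name HISAT2 2.0.5, featureCounts 1.5.0-p3 and DESeq2 1.20.0, while the methods name HTSeq, so which counter made the table, its annotation release and its use of strand are not settled. The methods describe 2 biological replicates and the labels 3, and all 3 were used. The deposited counts are whole reads per gene, not normalized. The FPKM values deposited by the authors divide counts by gene length and library size; they were 0.992 times RPKM recomputed from the counts (median over 125356 values). The deposited fold changes and p-values of the authors' own comparisons were not used.

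Counts were tested with edgeR 4.0.16 in R 4.3.3: filterByExpr with a minimum count of 10, TMM, glmQLFit and glmQLFTest on the groups compared, and Benjamini-Hochberg adjustment over all genes. SE is the absolute log2 fold change divided by the square root of F. DESeq2 1.42.0 was an alternative, beside RLE size factors, a minimum total of 1 count in place of the filter, a fit of all 9 samples together, a replicate block, leaving out 1 sample at a time, adjustment over protein-coding genes, the unadjusted p and a 2-fold cutoff. The fits were tested on simulated data. Python 3.11.15, pandas 2.3.3 and matplotlib 3.10.9 made tables and figures. Exons came from GENCODE v44 and promoters from RefSeq. Pairs of samples within a group gave a chi-square of 3.20 to 10.7 per degree of freedom over genes, above sampling noise. In DMSO it was 10.7 and 6.86 for the pairs with replicate 2 and 3.20 for the pair without it. Pairs at 0.3 μM had 4.51 to 9.09.

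Named genes were SLC25A27, the uncoupling branch, the ADP/ATP carriers, each member called in any comparison, the 8 with the highest median FPKM in DMSO, the largest rise and fall at 0.3 μM and up to 3 called genes per list. SLC25A12, SLC25A36, SLC25A37 and SLC25A20 were named as relatives of called genes after their values were seen. SLC25A35 was named for its fall, also after its values were seen. A thyroid marker of the lists and the sum that holds it are not reported here. The members and lists were chosen with earlier results of these data known.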

Additional observations from a re-analysis of the deposited data

How the results depend on the processing

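Of the results other than that of SLC25A27, none reversed under any alternative. The log2 fold change of SLC25A27 was between -1.92 and -1.69 without any 1 sample. Since its fall chose the family, this range is a description and no support for the fall. The number of members called other than SLC25A27 at 1 μM against DMSO, 9 in the report, was 8 by DESeq2 and 15 at an unadjusted p under 0.05. It was 13 without DMSO replicate 2 and 6 or 7 without any other 1 sample. At 0.3 μM it was 0 without any 1 sample and 1 at an unadjusted p. For 1 μM against 0.3 μM, 8 in the report, it was 5 to 8 without 1 sample, 7 by DESeq2 and 13 at an unadjusted p. Under the 1.5-fold cutoff, 2 in the report, it was 4 without DMSO replicate 2 and 1 without any of the 5 other samples. With that cutoff it was 3 at an unadjusted p, and with a 2-fold cutoff it was 0. SFXN2 was not called by DESeq2, so that its list had 0, and the mitochondrially encoded mRNAs had 1 call with RLE size factors and 1 with the replicate block.

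Calls of SLC25A29, SLC25A28, SLC25A24, SLC25A13 and SLC25A33 against DMSO held in all 12 alternatives. The replicate numbers paired the samples weakly at most. Correlations over 16124 genes were -0.022 to 0.082 for same-numbered samples and -0.069 to 0.038 for the others. Between DMSO and 0.3 μM, same-numbered pairs (0.020 to 0.082) lay above all others (-0.069 to 0.006). With the replicate number as a block, 6 members were called at 1 μM against DMSO, 0 at 0.3 μM and 8 for 1 μM against 0.3 μM, 2 passed the 1.5-fold cutoff, and SLC25A27 had -1.80. The calls lost with the block at 1 μM against DMSO were those of SLC25A14 (adjusted p = 0.0505), UCP2 (0.069) and SLC25A16 (0.062) by edgeR. At 12 to 13 counts per sample at 1 μM, the depth limits the precision of SLC25A27.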

Other observations

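The start of SLC25A27 lies 85 bases from that of CYP39A1, an oxysterol hydroxylase gene on the opposite strand, which had 0 to 5 counts in every sample and was not tested. GABPA, an ETS factor among the biogenesis regulators, had 760, 766 and 762 counts in DMSO, 665, 834 and 728 at 0.3 μM and 910, 726 and 782 at 1 μM. Its log2 fold change was 0.06 at 1 μM against DMSO (SE 0.08, adjusted p = 0.65 by edgeR) and -0.07 at 0.3 μM (SE 0.09, adjusted p = 0.995 by edgeR). Both genes were singled out after their values were seen.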
